A study of Rattus norvegicus with 8 samples.

Results

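The 38 genes described here encode enzymes, carriers and regulators of fatty acid oxidation and the citrate cycle, most of them mitochondrial. They are the rows of the deposited gene count table that carry 1 of 38 given names, of 37209 rows in all, and all 38 passed the low-count filter that left 15464 genes. They comprise 20 enzymes and carriers of beta-oxidation, 15 enzymes of the citrate cycle and the pyruvate dehydrogenase complex, and 3 regulators (Ppara, Pdk2 and Pdk4). Peroxisomal Acaa1a is counted in beta-oxidation and cytosolic Mdh1 in the citrate cycle block. The names were chosen by function, with no threshold on their values, but with earlier results of these data known. RNA came from Sprague Dawley rats, an outbred strain, 1 week after a vein graft operation in which the left common carotid artery was divided and its ends were turned over cuffs. The 2 groups were 4 graft veins and 4 control jugular veins, the latter taken at the same time from the animals' other side. The samples hold no sham-operated group, so grafting and surgery cannot be told apart. The series' design text speaks of 4 pairs, but the labels number grafts and controls in 2 ways, so no graft was matched to a control.

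In beta-oxidation, long-chain fatty acids are joined to carnitine, carried into the mitochondrion and shortened from one end to acetyl-CoA in a repeated round of oxidation, hydration, oxidation and cleavage. Pyruvate dehydrogenase makes acetyl-CoA from pyruvate, the end product of glycolysis, and the citrate cycle oxidises the acetyl group from either source to carbon dioxide. Cells of fat, heart and skeletal muscle are known for high levels of these enzymes, and smooth muscle and endothelial cells of the vessel wall use them alongside glycolysis.

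The control libraries held 5981520 (control 4) to 14267490 counts and the graft libraries 10533451 to 16061189. Levels below are CPM, counts scaled to a common library size with TMM factors, and 3 counts correspond to 0.182 to 0.56 CPM. CPM is not divided by gene length, so levels are compared between libraries and not between genes. The extraction text in the labels names a brain region, but the libraries carry the genes of a vessel wall: 8 smooth muscle genes summed to 13079.9 to 21663 CPM in the controls and 1815 to 3470.2 CPM in the grafts, and 6 neuronal genes to 4.94 to 6.91 CPM in the controls and 11.4 to 47.6 CPM in the grafts, most of the latter Stmn2. Markers of several other cell types also differed between the groups, while those of skeletal muscle overlapped between them. Controls 3 and 4 held more RNA of fat cell genes than controls 1 and 2: 9 white adipocyte genes summed to 499, 743, 1919 and 2325 CPM across controls 1 to 4, against 149.6, 158, 172 and 212 CPM across grafts 1 to 4. Of the 9, 9 fell in the grafts. Ucp1, the uncoupling protein that defines brown fat, had 400 and 424 counts in controls 3 and 4 and 0 in the other 6 libraries. Counts of calls, and each member called with all libraries, are therefore also given for the 4 grafts against controls 1 and 2 alone. In whole tissue, fewer cells of a type and less RNA per cell cannot be told apart.

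Grafts held less RNA of both arms of this pathway, and no member passed the threshold upward. Of the 20 beta-oxidation enzymes and carriers, 14 fell and 6 did not pass. Among the 15 citrate cycle and pyruvate dehydrogenase enzymes, 11 fell and 4 did not pass, and all 3 regulators fell. At an unadjusted edgeR p under 0.05 the number of members that rose was also 0, and it was 0 among the enzymes with DESeq2 and with limma voom. Of all 15464 genes tested, 42.3% were called, with 21.3% lower and 21.0% higher in the grafts. Calls rest on the quasi-likelihood test of edgeR, with p-values adjusted over those genes ("edgeR adjusted p") and 0.05 as the threshold. The median log2 fold change, graft minus control, was -1.18 for beta-oxidation and -1.11 for the citrate cycle block, against 0.01 for all genes. With controls 3 and 4 left out, 7 of the 20 and 5 of the 15 enzymes fell, where 13.7% of all genes did, and the medians were -0.35 and -0.43. At an unadjusted p under 0.05, 9 of the 20 and 9 of the 15 fell in that smaller fit, against 19.5% of all genes. The beta-oxidation count was 9 without control 3 or graft 2 and 8 without control 4 or graft 3, and the median was -0.79 without control 4.

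**Figure D1:**
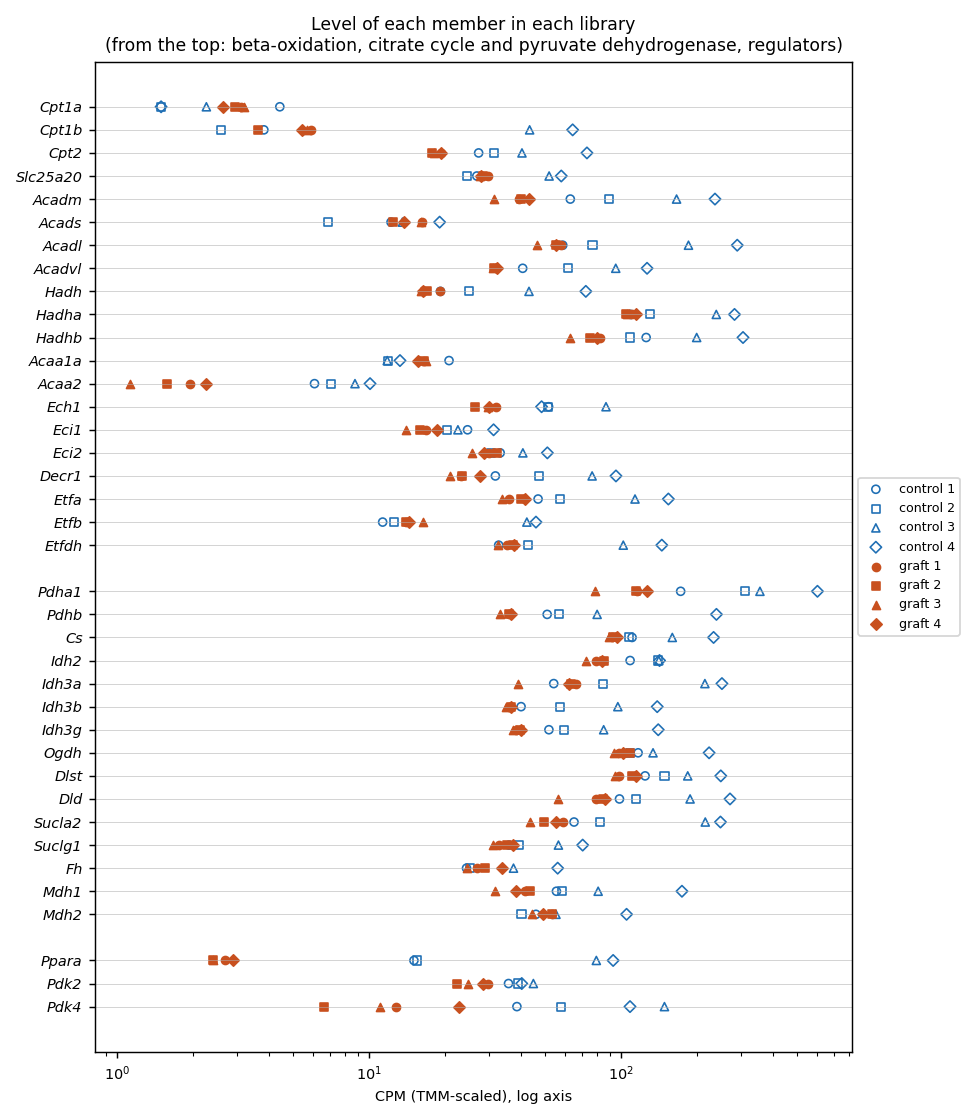
Level of each of the 38 genes in each library, in CPM on a log axis. Open blue symbols are controls 1 to 4 and filled orange symbols grafts 1 to 4. The grafts lie close together, while controls 3 and 4 lie above controls 1 and 2 for 34 of the 38 genes.

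The controls differed more among themselves than the grafts did. Summed over the 20 beta-oxidation genes, levels were 749, 839, 1584 and 2120.3 CPM across controls 1 to 4, against 621, 596, 553 and 627 CPM across grafts 1 to 4. The citrate cycle block summed to 1154, 1433, 2085 and 3142 CPM across controls 1 to 4, against 952, 983, 804 and 998 CPM across grafts 1 to 4. In both sums all grafts lay below all controls. Control 4 was the highest library, followed by controls 3, 2 and 1, which is also the order of the white adipocyte sum. The coefficient of variation of the sum was 49.1% over the controls and 5.59% over the grafts for beta-oxidation, and 45.2% and 9.52% for the citrate cycle block. Gene by gene, it was lower over the grafts for 19 of the 20 and 15 of the 15, against 67.8% of all genes tested. Controls 3 and 4 both exceeded controls 1 and 2 for 16 of the 20 beta-oxidation genes, 15 of the 15 citrate cycle genes and 3 of the 3 regulators. Among all genes tested this order held for 21.5%. The part of fat cells in these differences was not tested.

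Carnitine shuttle genes divided. Cpt1a and Cpt1b are the liver and muscle isoforms of carnitine palmitoyltransferase 1, which joins long-chain fatty acids to carnitine at the outer membrane and sets the pace of the pathway. Cpt1b measured 3.82, 2.59, 43.3 and 64.2 CPM across controls 1 to 4, against 5.89, 3.61, 5.68 and 5.39 CPM across grafts 1 to 4. Controls 3 and 4 were far above all other libraries, and 3 of the 4 grafts lay above controls 1 and 2. Cpt1b passed at -2.45 (log2; SE 0.89, edgeR adjusted p = 0.0494), but its sign turned to 0.68 without controls 3 and 4 (edgeR adjusted p = 0.16). It also missed the threshold without control 3 or 4 (edgeR adjusted p = 0.112 and 0.152) and without any 1 graft (0.0942 to 0.108). Cpt1a, at 4.42, 1.49, 2.26 and 1.49 CPM across controls 1 to 4, against 3.09, 2.93, 3.2 and 2.63 CPM across grafts 1 to 4, overlapped between the groups and did not pass (log2 fold change 0.26, edgeR adjusted p = 0.606). Cpt2, the inner membrane partner that returns the fatty acid to coenzyme A, measured 27.2, 31.4, 40.4 and 73.2 CPM across controls 1 to 4, against 19.3, 17.7, 18.1 and 19.3 CPM across grafts 1 to 4. All grafts were below all controls, and Cpt2 fell by 1.20 (log2; SE 0.28, edgeR adjusted p = 0.00772), with -0.65 against controls 1 and 2 alone (edgeR adjusted p = 0.0152). The carrier Slc25a20, which moves acylcarnitine across the inner membrane, did not pass (log2 fold change -0.50, edgeR adjusted p = 0.163).

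The ratio of the Cpt1 isoforms within a library does not depend on library scaling. The log2 ratio of Cpt1b to Cpt1a counts was -0.21, 0.75, 4.21 and 5.26 for controls 1 to 4, with 0.91, 0.29, 0.81 and 1.02 for grafts 1 to 4. The grafts lay between control 1 and control 3, and the group difference of -1.75 did not pass (exact two-sided permutation test over the 70 splits, p = 0.4, adjusted p = 0.4 over 2 ratios, n = 4 per group). The difference was 0.48 without controls 3 and 4. Without control 1 it was -2.65 and without control 4 it was -0.83, and without control 3 it was -1.18.

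Of the 4 acyl-CoA dehydrogenases, which take the first pair of hydrogens from chains of different length, 3 fell. Acadm, for medium chains, measured 62.9, 89.7, 166 and 236 CPM across controls 1 to 4, against 39.3, 40.2, 31.3 and 43.2 CPM across grafts 1 to 4. Every graft lay below every control, and Acadm fell by 1.84 (log2; SE 0.37, edgeR adjusted p = 0.00319); against controls 1 and 2 alone the value was -0.98 (edgeR adjusted p = 0.00826). Acadvl, for very long chains, measured 40.7, 61.3, 95.2 and 127 CPM across controls 1 to 4, against 31.7, 31.4, 31 and 32 CPM across grafts 1 to 4. The grafts were nearly equal and all below the lowest control, and Acadvl fell by 1.36 (log2; SE 0.30, edgeR adjusted p = 0.00546), with -0.69 against controls 1 and 2 (edgeR adjusted p = 0.0236). Acadl, for long chains, had grafts at 46.2 to 57.8 CPM just under control 1 and fell by 1.50 (log2; SE 0.44, edgeR adjusted p = 0.0209). It missed the threshold without control 3, control 4 or graft 3 (edgeR adjusted p = 0.0516, 0.0546 and 0.0578) and without both controls 3 and 4 (0.166). Acads, for short chains, overlapped between the groups (log2 fold change 0.19, edgeR adjusted p = 0.608).

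Acadvl is 1 of the 2 members whose 250 bases before the start hold AGGTCA, the hexamer that PPAR, RXR and related nuclear receptors bind. It is printed for that reason, from RefSeq's GRCr8 assembly at chr10:55236706-55236955, minus strand, 5′ to 3′ along the gene and ending at the base before the start, with each AGGTCA in capitals (169 and 17 bases before the start at their first base).
Acadvl: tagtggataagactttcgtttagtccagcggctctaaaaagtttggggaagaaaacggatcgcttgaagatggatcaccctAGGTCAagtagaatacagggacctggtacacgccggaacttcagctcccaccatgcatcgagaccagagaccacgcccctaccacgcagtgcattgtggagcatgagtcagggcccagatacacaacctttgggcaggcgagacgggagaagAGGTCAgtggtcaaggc
Of the 38 members 32 matched a promoter entry, and Cpt1b, Acadl, Acaa2, Ech1, Decr1 and Idh3a did not. AGGTCA on either strand lay in 2 of the 32 (Acadvl and Eci1) and in 14.1% of all 33469 promoters. The longer motifs TNAAGGTCA, and the direct repeat of AGGTCA with 1 base between (DR1), lay in 0 of the 32 and in 1.04% and 0.0508% of all promoters. At shares this low, 0 of the 32 does not set the members apart from all promoters. GGGCGG, the GC box, lay in 20 of the 32 (62.5%) and in 30.5% of all, and CCAAT in 14 of the 32 (43.8%) and in 34% of all. These matches describe letters in a window and not bound sites.

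The next steps of the round are carried out by the trifunctional protein on long chains and by separate enzymes on shorter ones. Hadha and Hadhb encode the alpha and beta subunits of the trifunctional protein. Hadhb, the thiolase subunit, measured 126, 109, 199 and 305 CPM across controls 1 to 4, against 82.5, 75.3, 62.6 and 80.3 CPM across grafts 1 to 4. Each graft lay under the lowest control, and Hadhb fell by 1.29 (log2; SE 0.30, edgeR adjusted p = 0.00676), with -0.64 against controls 1 and 2 alone (edgeR adjusted p = 0.0194). Hadha, the hydratase and dehydrogenase subunit, measured 109, 129.7, 239 and 282 CPM across controls 1 to 4, against 111, 105, 105 and 115 CPM across grafts 1 to 4. The grafts lay around control 1, and Hadha fell by 0.80 (log2; SE 0.28, edgeR adjusted p = 0.0412) but missed the threshold without control 3 or 4 (edgeR adjusted p = 0.106 and 0.119), without any 1 graft (0.0745 to 0.0921) and without both controls 3 and 4 (0.497).

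Both subunits start from opposite ends of the same 300 bases, which are shown because the genes face away from each other there and make 1 protein complex. The stretch lies between the start of Hadhb on the left and that of Hadha on the right, at chr6:31907501-31907800 of GRCr8 in RefSeq, printed on the plus strand, with the 2 GC boxes (GGGCGG, here both on the minus strand) in capitals.
Hadhb-Hadha: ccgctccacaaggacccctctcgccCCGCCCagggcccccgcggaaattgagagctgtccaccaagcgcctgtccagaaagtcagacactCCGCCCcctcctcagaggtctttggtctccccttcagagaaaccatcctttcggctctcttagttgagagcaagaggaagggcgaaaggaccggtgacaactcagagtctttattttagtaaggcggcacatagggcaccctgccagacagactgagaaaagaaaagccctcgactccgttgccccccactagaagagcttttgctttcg
The log2 ratio of Hadhb to Hadha counts was 0.20, -0.25, -0.26 and 0.11 for controls 1 to 4, with -0.42, -0.47, -0.75 and -0.51 for grafts 1 to 4. This ratio was taken after the values were seen and is given without a test. Every graft lay below every control.

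Acaa2, the mitochondrial thiolase that cleaves off acetyl-CoA, measured 6.07, 7.07, 8.78 and 10.1 CPM across controls 1 to 4, against 1.94, 1.58, 1.12 and 2.25 CPM across grafts 1 to 4. It was low in all libraries and lower in each graft than in any control, and fell by 2.19 (log2; SE 0.29, edgeR adjusted p = 0.000337). Without controls 3 and 4 the value was -1.91 (edgeR adjusted p = 0.00534). Hadh, the short-chain hydroxyacyl-CoA dehydrogenase, fell by 1.21 (log2; SE 0.36, edgeR adjusted p = 0.0236). It missed the threshold without control 3, control 4, graft 2, graft 3 or graft 4 (edgeR adjusted p = 0.0504 to 0.06) and without both controls 3 and 4 (0.171). The peroxisomal thiolase gene Acaa1a, whose reads may be shared with a near-identical copy, did not pass (log2 fold change 0.18, edgeR adjusted p = 0.496). Without control 1, its highest control, it rose by 0.42 (edgeR adjusted p = 0.0289).

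Enzymes that prepare unsaturated chains for the round also fell in 3 of 4 cases. Decr1, the dienoyl-CoA reductase, measured 31.7, 47.2, 76.7 and 95.4 CPM across controls 1 to 4, against 23.1, 23.4, 20.9 and 27.6 CPM across grafts 1 to 4. All grafts were below all controls, and Decr1 fell by 1.40 (log2; SE 0.30, edgeR adjusted p = 0.00521), with -0.73 against controls 1 and 2 (edgeR adjusted p = 0.031). Ech1, a dienoyl-CoA isomerase, measured 51.5, 51.2, 87.1 and 48.3 CPM across controls 1 to 4, against 31.8, 26.2, 29.8 and 29.8 CPM across grafts 1 to 4. Control 3 was the highest library here, the other controls were alike, and Ech1 fell by 1.02 (log2; SE 0.20, edgeR adjusted p = 0.00271), with -0.80 against controls 1 and 2 (edgeR adjusted p = 0.00456). Eci1, an enoyl-CoA isomerase, fell by 0.59 (log2; SE 0.17, edgeR adjusted p = 0.0193), but missed the threshold without control 4, graft 2 or graft 3 (edgeR adjusted p = 0.0526, 0.0504 and 0.0564) and without both controls 3 and 4 (0.101). Its relative Eci2 had a log2 fold change of -0.41 and did not pass (edgeR adjusted p = 0.0846).

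Electrons from the acyl-CoA dehydrogenases pass to the electron transfer flavoprotein, a dimer of Etfa and Etfb, and from there through Etfdh to the respiratory chain. Etfa measured 46.8, 57.4, 114 and 154 CPM across controls 1 to 4, against 36, 39.9, 33.6 and 41.7 CPM across grafts 1 to 4. The grafts were below all controls, and Etfa fell by 1.29 (log2; SE 0.34, edgeR adjusted p = 0.0129), with -0.46 against controls 1 and 2 (edgeR adjusted p = 0.0641). Etfdh measured 32.7, 42.6, 102 and 145 CPM across controls 1 to 4, against 35.4, 37.3, 32.3 and 37.6 CPM across grafts 1 to 4. Grafts and controls 1 and 2 overlapped, and Etfdh fell by 1.17 (log2; SE 0.41, edgeR adjusted p = 0.0442). It missed the threshold without control 3 (edgeR adjusted p = 0.105), without control 4 (0.135), without both (0.772) and without any 1 graft (0.0809 to 0.103). Etfb lay above controls 1 and 2 in all 4 grafts and did not pass (log2 fold change -0.92, edgeR adjusted p = 0.118), while without control 1 it fell by 1.19 (0.0274).

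Pyruvate dehydrogenase subunits fell. Pdha1 and Pdhb encode the alpha and beta subunits of its first enzyme. Pdha1 measured 172, 310.1, 356 and 601 CPM across controls 1 to 4, against 116, 114, 78.6 and 127 CPM across grafts 1 to 4. Each graft was below each control, and Pdha1 fell by 1.72 (log2; SE 0.33, edgeR adjusted p = 0.00286). The value was -1.14 against controls 1 and 2 alone (edgeR adjusted p = 0.0166). Pdhb measured 50.9, 56.9, 80.3 and 239 CPM across controls 1 to 4, against 36, 36, 33.1 and 36.4 CPM across grafts 1 to 4. Control 4 was far above the rest, all grafts were below all controls, and Pdhb fell by 1.58 (log2; SE 0.45, edgeR adjusted p = 0.0184), with -0.60 against controls 1 and 2 (edgeR adjusted p = 0.0124).

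Both member kinases that switch pyruvate dehydrogenase off by phosphorylation fell as well. Pdk4, the isoform known to be induced by fasting and fatty acids, measured 38.6, 58, 149 and 108 CPM across controls 1 to 4, against 12.7, 6.61, 11 and 22.8 CPM across grafts 1 to 4. All grafts were below all controls, with graft 4 the highest and graft 2 the lowest graft, and Pdk4 fell by 2.73 (log2; SE 0.48, edgeR adjusted p = 0.00173). Pdk2, the broadly expressed isoform, measured 35.7, 38.9, 44.8 and 40.3 CPM across controls 1 to 4, against 29.7, 22.4, 24.7 and 28.2 CPM across grafts 1 to 4. Again no graft reached the lowest control, and Pdk2 fell by 0.60 (log2; SE 0.14, edgeR adjusted p = 0.00604). Against controls 1 and 2 alone the values were -1.85 for Pdk4 (edgeR adjusted p = 0.0141) and -0.50 for Pdk2 (0.0547, which missed the threshold). The log2 ratio of Pdk4 to Pdk2 counts was 0.11, 0.57, 1.73 and 1.42 for controls 1 to 4, with -1.22, -1.75, -1.16 and -0.31 for grafts 1 to 4. The groups did not overlap and differed by -2.07 (exact two-sided permutation test, p = 0.0286, the smallest that 70 splits allow; adjusted p = 0.0571 over 2 ratios). The difference ran from -2.35 to -1.81 with any 1 library left out and was -1.45 without controls 3 and 4.

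**Figure D2:**
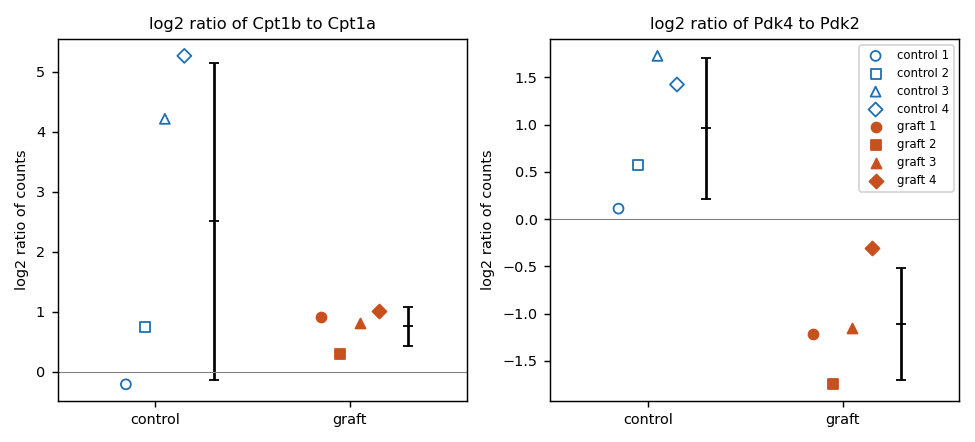
Log2 ratio of Cpt1b to Cpt1a counts (left) and of Pdk4 to Pdk2 counts (right) in each library, with mean and SD of each group as bars. For the Cpt1 isoforms controls 3 and 4 lie above 4 and all other libraries at 1.02 or below, while for the kinases every graft is below every control.

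Ppara encodes the nuclear receptor PPAR alpha, which switches on genes of fatty acid oxidation when fatty acids bind it. It measured 15.1, 15.5, 79.7 and 93 CPM across controls 1 to 4, against 2.67, 2.4, 2.4 and 2.89 CPM across grafts 1 to 4. The grafts were nearly equal, controls 3 and 4 were the highest, and Ppara fell by 4.28 (log2; SE 0.65, edgeR adjusted p = 0.000753), the largest fall among the 38 genes. Against controls 1 and 2 alone Ppara fell by 2.55 (edgeR adjusted p = 0.00036), also the largest of the 38 in that fit. In log2 CPM the graft mean differed from controls 1 to 4 by -2.47, -2.52, -4.86 and -5.08.

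Citrate synthase and the 4 mitochondrial isocitrate dehydrogenase genes, which make citrate and carry out the first oxidative step, all fell. Idh2, the mitochondrial enzyme that yields NADPH, measured 109, 141, 141 and 142 CPM across controls 1 to 4, against 79.6, 85.3, 72.6 and 84.3 CPM across grafts 1 to 4. Its controls 2, 3 and 4 were alike, and Idh2 fell by 0.73 (log2; SE 0.12, edgeR adjusted p = 0.00129), with nearly the same value, -0.63, against controls 1 and 2 (edgeR adjusted p = 0.0185). Idh3g, a regulatory subunit of the NAD-dependent enzyme, measured 51.7, 59.3, 85.2 and 140.4 CPM across controls 1 to 4, against 38.4, 39.8, 37.2 and 40.2 CPM across grafts 1 to 4. No graft reached the lowest control, and Idh3g fell by 1.11 (log2; SE 0.28, edgeR adjusted p = 0.0106), with -0.51 against controls 1 and 2 (0.0236). The other subunits were at -1.20 for Idh3b (edgeR adjusted p = 0.0152) and -1.39 for Idh3a (0.0298), and Cs, citrate synthase, at -0.72 (0.0308). Without controls 3 and 4 none of these 3 passed (edgeR adjusted p = 0.0909, 0.485 and 0.179). Idh3a and Cs also missed the threshold without control 3 (0.0799 and 0.0655), without control 4 (0.089 and 0.059) and without any 1 graft (0.0555 to 0.0813 for Idh3a and 0.0592 to 0.0738 for Cs).

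The middle of the cycle, from 2-oxoglutarate to succinate, gave 3 falls among 5 genes. Sucla2, the ATP-forming subunit of succinyl-CoA ligase, measured 65, 82.2, 216 and 248 CPM across controls 1 to 4, against 58.6, 49.3, 43.5 and 55.2 CPM across grafts 1 to 4. The grafts lay under every control, and Sucla2 fell by 1.56 (log2; SE 0.40, edgeR adjusted p = 0.0116). Dlst, the succinyltransferase of the 2-oxoglutarate dehydrogenase complex, measured 125, 149, 184 and 249 CPM across controls 1 to 4, against 97.6, 111, 94.1 and 114 CPM across grafts 1 to 4 and fell by 0.76 (log2; SE 0.20, edgeR adjusted p = 0.0133). Dld, the dihydrolipoamide dehydrogenase shared by this complex and pyruvate dehydrogenase, fell too (log2 fold change -1.12, edgeR adjusted p = 0.0148). Against controls 1 and 2 alone the 3 were at -0.51, -0.39 and -0.47 and missed the threshold (edgeR adjusted p = 0.0608, 0.0881 and 0.116). Ogdh, the first subunit of the complex, and Suclg1, the common subunit of the ligase, did not pass (log2 fold changes -0.53 and -0.56, edgeR adjusted p = 0.0719 and 0.0532). Without control 1 or control 2 both passed (edgeR adjusted p = 0.0431 and 0.0469 for Ogdh, 0.0136 and 0.0442 for Suclg1).

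Of fumarase and the malate dehydrogenases, 1 of 3 genes fell. Mdh1, the cytosolic malate dehydrogenase of the malate-aspartate shuttle, measured 55.4, 58.2, 81.1 and 174 CPM across controls 1 to 4, against 41.6, 43.3, 31.6 and 38.3 CPM across grafts 1 to 4. Grafts and controls did not overlap, and Mdh1 fell by 1.25 (log2; SE 0.34, edgeR adjusted p = 0.0161), with -0.55 against controls 1 and 2 (edgeR adjusted p = 0.0393). Mdh2, the mitochondrial enzyme of the cycle, had grafts at 44.4 to 53.4 CPM and controls at 40.2 to 105 CPM and did not pass (log2 fold change -0.29, edgeR adjusted p = 0.414). Fh, fumarase, measured 24.3, 25.1, 37.4 and 56 CPM across controls 1 to 4, against 26.8, 28.7, 24.4 and 33.6 CPM across grafts 1 to 4. The groups overlapped and Fh did not pass (log2 fold change -0.32, edgeR adjusted p = 0.345). Whether Mdh1 and Mdh2 differed in their change was not tested.

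**Figure D3:**
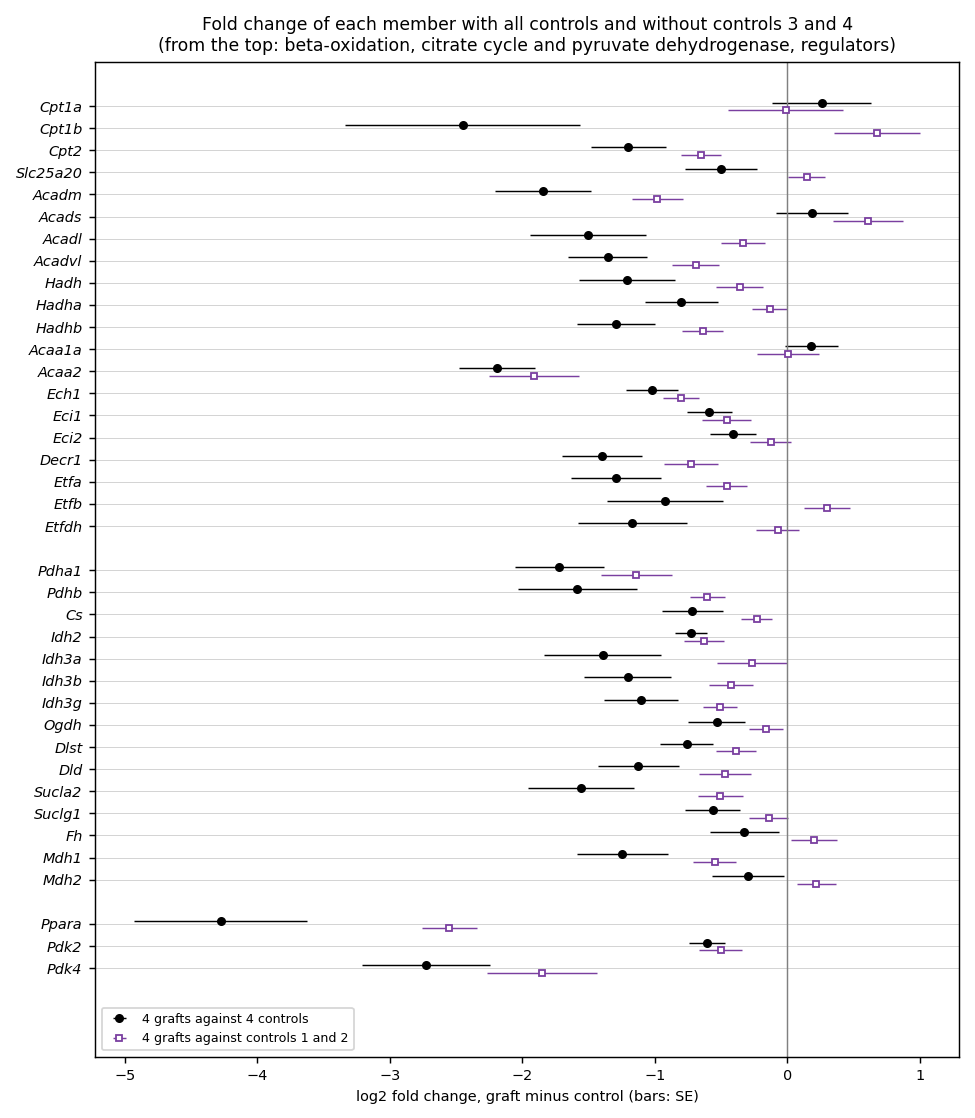
Log2 fold change (graft minus control) with its SE for each of the 38 genes, fitted with all 4 controls (black circles) and with controls 1 and 2 alone (open squares). The second fit is closer to 0 for 37 of the 38 genes (all but Acads), with Ppara at -2.55, Acaa2 at -1.91 and Pdk4 at -1.85 the lowest there and Cpt1b turned to 0.68.

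The median change was close in beta-oxidation and the citrate cycle block. The median log2 fold changes differed by -0.08, 11 of the 20 beta-oxidation enzymes lay below the citrate block's median and 6 of the 15 citrate block enzymes below that of beta-oxidation. The beta-oxidation values ran from -2.45 (Cpt1b) to 0.26 (Cpt1a) and those of the citrate block from -1.72 (Pdha1) to -0.29 (Mdh2). In 11 of the 20 and 10 of the 15 enzymes, and in 3 of the 3 regulators, every graft lay below every control, which held for 19.8% of all genes tested. In 0 of the 38 did every graft lie above every control, against 20.8% of all genes. No test of the difference between the blocks was made.

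Set against each control in turn, both blocks lay farthest below control 4, then control 3, and least below control 1. The median difference in log2 CPM between the mean of the grafts and controls 1 to 4 was -0.32, -0.43, -1.46 and -1.98 for beta-oxidation and -0.26, -0.60, -1.07 and -1.83 for the citrate block, while that of all genes tested lay between -0.01 and 0.04. The graft mean was below controls 1 to 4 for 15, 14, 17 and 18 of the 20 beta-oxidation genes and for 12, 13, 15 and 15 of the 15 citrate block genes. Acadm, for example, differed by -0.71, -1.23, -2.11 and -2.62 and Pdha1 by -0.68, -1.53, -1.73 and -2.48.

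**Figure D4:**
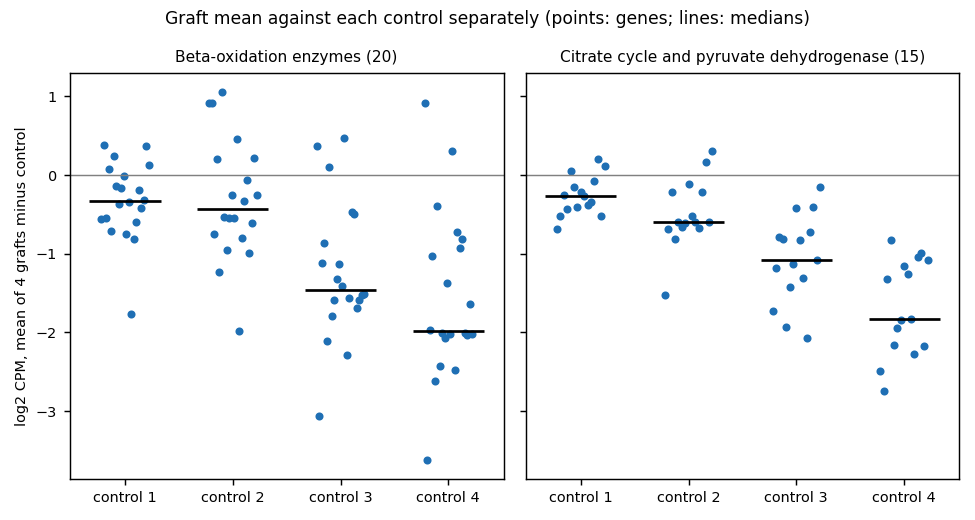
Difference in log2 CPM between the mean of the 4 grafts and each control, for 20 beta-oxidation genes (left) and 15 genes of the citrate cycle and pyruvate dehydrogenase (right). Each point is a gene and each line the median, which goes from -0.32 and -0.26 at control 1 to -1.98 and -1.83 at control 4.

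Markers of other cells differed between the libraries as follows. The 5 brown adipocyte genes in the table summed to 22.5, 20.1, 126 and 245 CPM across controls 1 to 4, against 5.22, 8.26, 11.3 and 8.28 CPM across grafts 1 to 4, with Elovl3 at 0 in all libraries. The 10 skeletal muscle genes summed to 54.7, 40.4, 1649 and 225 CPM across controls 1 to 4, against 819, 43, 425 and 1061 CPM across grafts 1 to 4. Among the controls, the muscle sums were higher in controls 3 and 4 than in controls 1 and 2, as were the beta-oxidation sums. Grafts 1, 3 and 4 lay above controls 1, 2 and 4 in skeletal muscle genes and below them in beta-oxidation. Graft 2 was near controls 1 and 2 in skeletal muscle genes and also below them in beta-oxidation. Of 6 cardiac genes Myl7 was at 0 throughout. Ryr2, which smooth muscle also makes, fell from 50.9 to 62.9 CPM in the controls to 2.8 to 21.4 CPM in the grafts (edgeR adjusted p = 0.00411), and Tnnt2, a cardiac troponin, rose from at most 0.837 CPM to 3.76 to 7.04 CPM (edgeR adjusted p = 0.00191). The 8 smooth muscle genes all fell, 3 of 6 endothelial genes fell, and all 8 macrophage genes rose, with sums of 193 to 277 CPM in the controls and 1020.1 to 1549 CPM in the grafts. The 4 tested T cell genes also rose. Smooth muscle sums were 20260, 21663, 13080 and 18220 CPM across controls 1 to 4, against 3470, 3424, 1815 and 3070 CPM across grafts 1 to 4. What these cell types contributed to the members' differences was not tested.

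**Figure D5:**
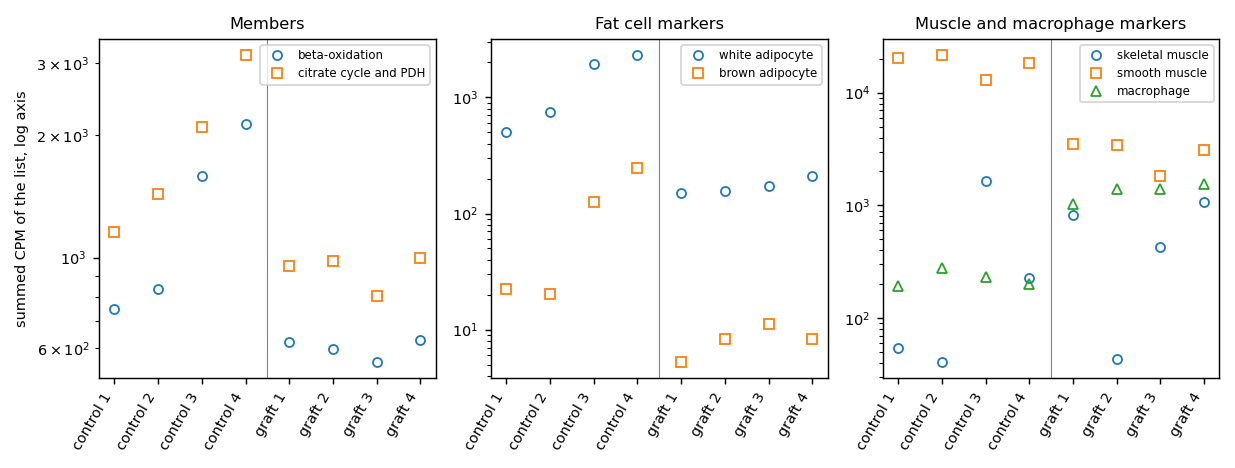
Summed CPM per library, on log axes, of the 2 enzyme blocks (left), fat cell markers (middle) and muscle and macrophage markers (right). The enzyme blocks and the fat cell markers are highest in controls 3 and 4, and macrophage markers are at 1020 CPM or more in the grafts and at most 277 CPM in the controls.

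Of 134 further genes on 12 lists around the pathway, 125 were tested, 48 fell and 15 rose. With controls 3 and 4 left out 41 were called in either direction. Counts for each list are read against the 21.3% of all genes that fell and the 21.0% that rose, or 13.7% and 15.4% without controls 3 and 4. Fatty acid uptake and activation gave 3 falls and 2 rises among 11 tested, shares near those of all genes, and 2 and 2 of 12 without controls 3 and 4. Acsl1, the acyl-CoA synthetase that activates long chains and is abundant in fat and muscle, measured 161, 209, 572 and 932 CPM across controls 1 to 4, against 35.3, 36.3, 33.7 and 29.6 CPM across grafts 1 to 4. All grafts were far below all controls, and it fell by 3.80 (log2; SE 0.53, edgeR adjusted p = 0.000491), with -2.45 against controls 1 and 2 alone, whereas Fabp5, a fatty acid binding protein of macrophages and other cells, rose by 2.58 (log2; SE 0.33, edgeR adjusted p = 0.00029). Of 10 genes of the malonyl-CoA brake and AMPK, the kinase that relieves it, 5 fell and 1 rose (4 and 2 without controls 3 and 4). Prkaa2, a catalytic subunit of AMPK, measured 193, 188, 142 and 201 CPM across controls 1 to 4, against 18, 13, 5.6 and 17.9 CPM across grafts 1 to 4 and fell by 3.72 (log2; SE 0.33, edgeR adjusted p = 4.86e-05). Control 3 was its lowest control, and the other controls were alike. Prkab1, a regulatory subunit, rose by 0.57 (edgeR adjusted p = 0.0085).

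Peroxisomal beta-oxidation gave 6 falls and 1 rise among 12 tested genes, but 3 falls and 1 rise without controls 3 and 4. Abcd2, a peroxisomal importer of very long chains, fell by 3.93 (log2; SE 0.43, edgeR adjusted p = 0.000123). PPAR receptors, coactivators and target genes gave 6 falls and 3 rises among 14 tested, but 3 falls and 3 rises without controls 3 and 4. Rxra, the partner of the PPAR receptors, rose by 0.82 (log2; SE 0.12, edgeR adjusted p = 0.000755). Of 5 ketone body genes 3 fell and 1 rose, Bdh1 (log2 fold change 0.95, edgeR adjusted p = 0.00286), with 2 and 1 in the fit without controls 3 and 4. Other acyl-CoA dehydrogenases and accessory enzymes gave 4 falls among 11 tested and 1 without controls 3 and 4, with the smallest p for Acss1, the mitochondrial acetyl-CoA synthetase (log2 fold change -0.82, edgeR adjusted p = 0.00462).

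The remaining enzymes of the citrate cycle gave 4 falls among 8 and 2 without controls 3 and 4. The smallest p was that of Sdhc, a membrane subunit of succinate dehydrogenase (log2 fold change -0.96, edgeR adjusted p = 0.00445), at -0.60 against controls 1 and 2 alone. Idh1, the cytosolic isocitrate dehydrogenase, did not pass (log2 fold change -0.23, edgeR adjusted p = 0.437). Other pyruvate dehydrogenase genes and pyruvate carriers gave 5 falls and 1 rise among 9, and 3 and 1 without controls 3 and 4. Pdk1, a further kinase of the complex, measured 88.5, 113, 125 and 190.0 CPM across controls 1 to 4, against 49.5, 42.4, 40.3 and 44.7 CPM across grafts 1 to 4. All grafts were below all controls, and Pdk1 fell by 1.54 (log2; SE 0.21, edgeR adjusted p = 0.000477), whereas Pdk3 rose by 0.82 (log2; SE 0.14, edgeR adjusted p = 0.00159). The 4 kinases of the complex thus gave 3 falls and 1 rise. Enzymes that fill or drain the cycle gave 3 falls and 3 rises among 14 (21.4% fell, a share near that of all genes), and 3 and 3 without controls 3 and 4. Pc, pyruvate carboxylase, fell by 2.98 (log2; SE 0.58, edgeR adjusted p = 0.00292), with -1.54 against controls 1 and 2 alone, and Got1, the cytosolic aspartate aminotransferase, rose by 1.02 (log2; SE 0.17, edgeR adjusted p = 0.0011).

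Genes of branched-chain amino acid breakdown, whose dehydrogenase shares Dld, gave 3 falls and 2 rises among 7, and 2 and 1 without controls 3 and 4. Ppm1k, the phosphatase that activates that dehydrogenase, fell by 1.48 (log2; SE 0.17, edgeR adjusted p = 0.000177), and Bcat1, the cytosolic aminotransferase, rose by 1.40 (edgeR adjusted p = 0.000669). Mitochondrial import, channel and chaperone genes, which lie outside these pathways, gave 5 falls and 0 rises among 16, with a median log2 fold change of -0.44. At an unadjusted edgeR p under 0.05, 10 of the 16 were lower and 1 higher in the grafts (Clpp, a protease of the matrix). The share of all genes at that unadjusted p was not counted with all libraries, so these counts have no reference share. Without controls 3 and 4, 1 of the 16 fell, where 13.7% of all genes did, and the median was -0.18. Tomm70, an import receptor, had the smallest p (log2 fold change -1.02, edgeR adjusted p = 0.00205). Mitochondrial transcription and biogenesis genes gave 2 falls and 1 rise among 9 (22.2% fell, near the share of all genes), and 2 falls without controls 3 and 4. Gabpa, a transcription factor of respiratory chain genes, fell by 0.96 (log2; SE 0.18, edgeR adjusted p = 0.00255). Polg, the mitochondrial DNA polymerase, rose by 0.37 (edgeR adjusted p = 0.0216) but missed the threshold without control 2, control 3 or graft 4 (0.0626, 0.0587 and 0.0649) and without both controls 3 and 4 (0.121).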

How the data were processed

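RNA of 4 graft veins and 4 control jugular veins of rats was sequenced as total RNA. Reads were aligned with HISAT2 2.0.4 to Rnor_6.0, per the submitters' processing notes, with the read counter, annotation and strand use not given in the sources used here. What the authors deposited is a table of raw counts, 1 row for each gene name. Without strand, reads of overlapping antisense genes cannot be told apart. Members were matched by name (Idh3b as Idh3B). Of 236 listed names 228 matched as written, 1 in another case, 4 by an older RefSeq symbol and 3 not at all.

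Counts were tested in R 4.3.3 with edgeR 4.0.16: filterByExpr (minimum count 10), TMM factors, glmQLFit and glmQLFTest, graft against control without pairing, and Benjamini-Hochberg adjustment over all genes. The SE is the absolute log2 fold change over the square root of F. Log2 CPM used a prior count of 2, and ratios of counts had 1 added to each. The labels do not say whether the 4 libraries of a group are separate animals beyond the 4 pairs of the design, so p-values measure the spread between these libraries. No 2 libraries of a group agreed within counting error (chi-square per degree of freedom from 20.3 to 111). The procedure was tested on simulated data.

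The members and lists were chosen with earlier results of these data known. Values in every library are given for the 2 members of each role with the smallest p, the regulators, both Cpt1 isoforms and any member called against its block's direction, and in each further list the smallest p in each direction is named, except for results not reported here. Alternatives were library totals or DESeq2 size factors as scaling, DESeq2 1.42.0, limma 3.58.1 voom, no low-count filter, the title number as a block, and leaving out each library or controls 3 and 4. Promoter sequences are RefSeq's (GRCr8).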

Additional observations from a re-analysis of the deposited data

Results flagged for a closer look

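In 84 groups of 4 libraries (each member, the summed blocks and the ratios, per group), 6 had a single library far from the other 3, where chance gives about 4.2 (1 in 20). The gap to the nearest library is given as a share of the group's range. In the controls, Acaa1a was high in control 1 (20.8 against 11.8 to 13.3 CPM, share 0.837), Ech1 in control 3 (87.1 against 48.3 to 51.5 CPM, share 0.918) and Pdhb in control 4 (239 against 50.9 to 80.3 CPM, share 0.843). Idh2 was low in control 1 (109 against 141 to 142 CPM, share 0.957). In the grafts, graft 3 was low for Pdhb (33.1 against 36 to 36.4 CPM, share 0.872) and for Idh3a (38.8 against 61.8 to 66.3 CPM, share 0.838).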

How the results depend on the processing

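Of the 28 members called with all libraries, 14 were called in all 15 alternatives (7 beta-oxidation enzymes, 5 citrate block enzymes, Ppara and Pdk4), and 20 in each of the 8 fits that left out 1 library. With controls 3 and 4 left out, the members called numbered 14, the genes called on the further lists 41 in place of 63, the beta-oxidation falls 7 and the citrate block falls 5, with medians of -0.35 and -0.43. In that fit Cpt1b turned to 0.68 and the log2 ratio of Cpt1b to Cpt1a to 0.48. Leaving out 1 library gave 8 to 15 beta-oxidation falls, 0 or 1 rise (Acaa1a, without control 1), 9 to 13 citrate block falls, 20 to 32 members, 49 to 85 genes on the further lists, and medians of -1.40 to -0.79 and -1.28 to -0.74. The beta-oxidation falls numbered 9 with limma voom and 9 with the title number as a replicate block. That block called 22 members, and it gave sign-flip differences of -1.75 and -2.07 for the 2 ratios, which 4 pairs cannot call. The correlations of same-numbered libraries about their group means were -0.0746, 0.18, 0.0712 and 0.0505, so the numbers were not taken as pairs. Library totals alone called 22 members, moved the median of all genes from 0.01 to 0.23 and the share of rises among calls from 49.7% to 67.8%, and left 35 of 38 members below 0, as with TMM. DESeq2 called 29 members, adding Suclg1 (DESeq2 adjusted p = 0.0366). Control 4, with the fewest counts, limits the lowest members such as Cpt1a.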

Other observations

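Echs1, the short-chain enoyl-CoA hydratase of the beta-oxidation round, was singled out after its values were seen. It had 64 counts in control 4 and 0 or 1 count in each of the other 7 libraries, and was not tested. The annotation used for counting is not given, so low counts in this row need not mean that the gene is silent.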
